A study of Mus musculus with 6 samples.

Results

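The 10 genes described here encode core inflammasome proteins and cytokines of the interleukin-1 (IL-1) family: the sensors Nlrp3 and Aim2, the adaptor Pycard, the caspases Casp1 and Casp4, the pore-forming Gsdmd, the cytokines Il1a, Il1b and Il18, and the receptor antagonist Il1rn. They were taken by gene name from the 34745 genes of the deposited table, and all 10 were found there. Expression had been measured by RNA sequencing in 6 tumours of Hep1-6, a mouse hepatoma line grown in culture and then injected under the skin of C57BL/6J mice. The mice were fed a normal diet (ND, 3 tumours) or a high cholesterol diet (HCD, 3 tumours). Cell line, strain and injection site were common to both groups, so every value comes from 1 transplanted line and the host cells within it. Age, sex, length of feeding and whether each tumour came from its own mouse are not given in the sources used here. The p-values therefore reflect only how far these samples spread, which may be technical. Where 3 values are given for a diet, they are in the order of replicates 1, 2 and 3, and FPKM stands for fragments divided by the length of the gene and the size of the library.

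Inflammasomes are protein complexes of the cytosol that assemble when a sensor such as NLRP3, or AIM2 on binding double-stranded DNA, recruits the adaptor ASC, the product of Pycard, and through it caspase-1. Active caspase-1 cuts the precursors of IL-1β and IL-18 and cuts gasdermin D, whose freed end forms pores in the plasma membrane. IL-1α and IL-1β act on the same receptor, which the antagonist encoded by Il1rn occupies without signalling. In tumours, macrophages and neutrophils are known sources of IL-1β, and transcript levels do not show whether a precursor has been cut.

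The bases before the transcription start are shown for 3 members: Il1a and Il1b, the agonists of a common receptor, which were both highest in ND 3 and lowest in HCD 1, and Il18, the member whose diet groups did not overlap. Each runs 5′ to 3′ on the gene's strand for the 250 bases before the RefSeq start on GRCm38.p6, with matches to any motif searched in capitals. The windows are chr2:129309973-129310222 (minus strand) for Il1a, chr2:129371140-129371389 (minus strand) for Il1b and chr9:50554450-50554699 (plus strand) for Il18.
Il1a: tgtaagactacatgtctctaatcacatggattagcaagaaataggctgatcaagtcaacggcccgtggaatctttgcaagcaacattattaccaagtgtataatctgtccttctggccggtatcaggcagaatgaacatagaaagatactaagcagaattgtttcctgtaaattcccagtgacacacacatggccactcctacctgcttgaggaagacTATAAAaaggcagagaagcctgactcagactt
Il1b: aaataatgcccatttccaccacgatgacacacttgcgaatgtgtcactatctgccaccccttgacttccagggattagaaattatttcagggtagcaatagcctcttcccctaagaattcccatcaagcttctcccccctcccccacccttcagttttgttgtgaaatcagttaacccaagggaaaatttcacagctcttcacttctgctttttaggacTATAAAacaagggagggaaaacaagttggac
Il18: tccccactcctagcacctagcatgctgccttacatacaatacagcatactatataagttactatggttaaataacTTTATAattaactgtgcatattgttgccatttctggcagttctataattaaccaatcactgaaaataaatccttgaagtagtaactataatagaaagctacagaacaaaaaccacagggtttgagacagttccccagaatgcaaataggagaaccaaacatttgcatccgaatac

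RefSeq windows were found for 9 of the 10 members, Gsdmd being the exception, and were searched on both strands for TATAAA (the TATA box), GGG and CC with any 5 bases between (a loose NF-kB pattern), TTGCNNAA (C/EBP), TTCNNNGAA (STAT) and a pair of GAAA with any 2 bases between (ISRE), overlapping matches included. Il1a and Il1b each held TATAAA on their own strand, starting at -32 and -31 relative to the start. Of all 32851 windows, 1.99% held TATAAA on the gene's strand between -40 and -20. In the Il18 window it lay on the other strand, from -175, and 12.4% of all windows held TATAAA on either strand. The NF-kB pattern was in the windows of 4 members, Nlrp3, Casp1, Casp4 and Il1rn, and in 45.8% of all windows. Pycard held the C/EBP pattern, found in 9.56% of windows, and no member held the STAT or ISRE pattern, found in 7.02% and 2.98%. The RefSeq start of Aim2 lies 69725 bases from the gene start in GENCODE M21.

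Sizes of the 6 libraries, read from the steps between low values, were 20351653 to 26228140 fragments, and 11495 to 12050 genes reached 1 FPKM. Hepatocyte markers were uneven: Alb was at 1176 to 1672 FPKM and Rbp4 at 223 to 267 FPKM. Apoa2 and Serpina1a, chosen after their values were seen, stayed at or below 0.415 FPKM in all libraries. ND 2 and HCD 1 stood apart by skeletal muscle RNA, with 671 and 779.7 FPKM summed over 6 muscle markers against 4.91 to 76.2 FPKM in the other 4. Summed over 10 macrophage and monocyte markers, ND libraries held 255.5 to 581.6 FPKM and HCD libraries 397.9 to 951.5 FPKM, with ND 1 the lowest and HCD 2 the highest. Summed over 8 neutrophil markers, ND 1, ND 2 and ND 3 held 98.1, 41.95 and 104.3 FPKM, and HCD libraries 39.65 to 41.85 FPKM. T cell markers, 7 in number, summed to 6.96, 25.6 and 30.4 FPKM under ND and 36.1, 51.8 and 21.5 FPKM under HCD. Because these are bulk samples, fewer cells of a type and less RNA per cell cannot be told apart.

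No member differed between the diets past the threshold. Limma called 0 of the 10 at an adjusted p of 0.05, as it called 0% of the 13417 genes tested. The diet groups did not overlap in 1 member, Il18, with HCD higher, against 12.1% of all genes tested in either direction. In 0 members were all HCD libraries below all ND libraries, against 6.13% of all genes tested. For 1 member, again Il18, limma gave an unadjusted p below 0.05, against 5.88% of all genes tested. Means were higher in HCD for 4 members (Il18, Casp1, Pycard and Casp4) and lower for 6, where 55.7% of all genes tested had a higher and 44.3% a lower mean. The sign for Casp4 turned under median-ratio and upper-quartile scaling, which left 3 members higher and 7 lower, and leaving out ND 2 and HCD 1 left 6 higher and 4 lower. The median difference of the 10 was -0.06, and that of all genes tested 0.019, on the log2(FPKM + 1) scale. The largest difference in size was that of Il1b, -0.76. On the log2(FPKM + 1) scale the 95% interval lay within 1 on either side of 0 for the other 9 members, as for 93.4% of all genes tested. The added 1 FPKM compresses differences and intervals of low genes, so this is no tight bound for them. With a pseudocount of 0.1 the Pycard difference was 0.53. All 10 members passed the filter on low values.

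**Figure D1:**
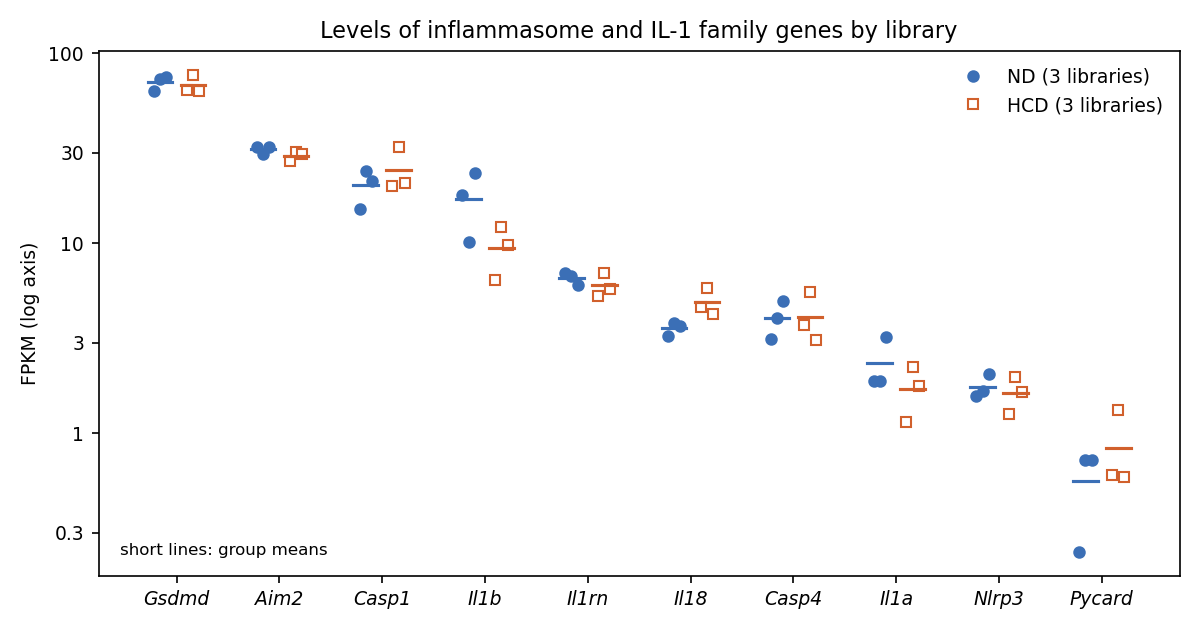
FPKM on a log axis for the 10 genes, with 1 point for each library (filled circles for ND, open squares for HCD) and a short line at each group mean. Gsdmd sits highest at 63.2 to 77.3 FPKM and Pycard lowest at 0.237 to 1.33 FPKM, and only for Il18 do the 3 HCD points all lie above the 3 ND points.

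On the scale of the deposited values the transcript of the adaptor was the least abundant of the 10, and those of the pore-forming protein and the DNA sensor were the most abundant. On this FPKM scale, which is per length, the order of mean levels over the 6 libraries was Gsdmd (69.3), Aim2 (30.1), Casp1 (22.3), Il1b (13.3), Il1rn (6.29), Il18 (4.23), Casp4 (4.07), Il1a (2.02), Nlrp3 (1.69) and Pycard (0.700). Gsdmd lay above 96.3% of all genes tested and Pycard above 5.55%. Gsdmd exceeded Aim2 without overlap of their ranges. Every other pair of neighbours in the order overlapped, and Aim2 with Casp1, Casp1 with Il1b, Il18 with Casp4, and Il1a with Nlrp3 also changed places in at least 1 library. Aim2 was 15.4 to 21.5 times as high as Nlrp3 in every library.

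These levels depend on the gene length the values were divided by. The smallest lengths that make the values whole fragments were 1497 bases for Casp1 and 1974 for Il1a, the same as in GENCODE M21, but 8102 for Il1rn, 5456 for Aim2, 4846 for Casp4 and 4236 for Pycard, against 5535, 3501, 3710 and 3800 in M21. Nlrp3 and Il1b also came out longer, at 5149 and 2352 bases against 4057 and 1907. Gsdmd and Il18 came out shorter, at 1776 and 714 bases against 2377 and 1031. As the smallest fitting length was taken, a multiple of it would fit too, and the fragment numbers given for the members are the smallest that fit. Spread instead over the longest principal transcript of M21, mean levels would be 68.7 for Gsdmd, 57.9 for Aim2, 23.1 for Il1b, 22.3 for Casp1, 20.6 for Il1rn, 13.8 for Casp4, 3.51 for Il18, 2.17 for Nlrp3, 2.02 for Il1a and 0.780 for Pycard. On that scale the mean of Il1b lies above that of Casp1, and those of Il1rn and Casp4 lie closer to both. By library, Il1b was above Casp1 and Il1rn in ND 1 and ND 3 only. In ND 2 and in every HCD library it was below both. The M21 transcript of Pycard has 3800 bases, of which 582 are coding. If all its fragments lay in the coding part, its mean would be 5.09, above the 2.81 of Nlrp3 and the 4.91 of Il1a and below the 27.6 of Casp1 computed the same way. Length does not differ between libraries, so it leaves the FPKM ratio between diets as it is. It does set how far the added 1 FPKM shrinks a log2 difference and whether a gene passes the filter. The Pycard difference was 0.23 in the reported fit, 0.53 with a pseudocount of 0.1 and 0.62 by limma-voom on implied fragments.

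Of the sensors, Nlrp3 (ENSMUSG00000032691, chromosome 11, 59541568 to 59566956), which responds to membrane damage and ion efflux, was found at 1.56, 1.67 and 2.05 FPKM in the ND tumours and 1.26, 1.97 and 1.65 FPKM in the HCD tumours. The lowest and highest values overall were in HCD 1 and ND 3, and the groups overlapped. These values rest on 132 to 225 fragments. The log2 difference was -0.077 (95% interval -0.39 to 0.24, limma adjusted p = 0.896). Aim2 (ENSMUSG00000037860, chromosome 1, 173350879 to 173466040), the sensor of cytosolic DNA, had ND values of 32.2, 29.4 and 32.2 FPKM and HCD values of 27.1, 30.3 and 29.5 FPKM. It was the steadiest member, with a ratio of 1.19 between its highest and lowest library. ND 1 and ND 3 lay above all HCD libraries and ND 2 did not. The log2 difference was -0.11 (SE 0.067, 95% interval -0.27 to 0.054, limma adjusted p = 0.794), from 3005 to 4209 fragments, and it was -0.062 without HCD 1.

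In the adaptor and both caspases, ND 1 was the lowest or next to lowest library and HCD 2 the highest, and the diet groups overlapped. Pycard (ENSMUSG00000030793, chromosome 7, 127989708 to 127993867) measured 0.237, 0.720 and 0.721 FPKM under ND and 0.603, 1.33 and 0.587 FPKM under HCD. Only 23 fragments lay behind the ND 1 value and 115 behind that of HCD 2, and the log2 difference was 0.23 (95% interval -0.28 to 0.74, limma adjusted p = 0.824), or 0.049 without HCD 2. Its exons share 485 bases with those of Gm45205 on the opposite strand, which reached 0.102 FPKM. Casp1 (ENSMUSG00000025888, chromosome 9, 5298517 to 5307265), the protease that the complex activates, was found at 15.2, 24.0 and 21.3 FPKM in the ND tumours and 20.0, 32.3 and 20.8 FPKM in the HCD tumours. HCD 1 and HCD 3 lay inside the ND range. The log2 difference of 0.25 (95% interval -0.31 to 0.81, limma adjusted p = 0.825) was 0.036 without HCD 2. ND 1 and HCD 2 also had the lowest and the highest macrophage sums, 255.5 and 951.5 FPKM. The T cell sums (6.96 and 51.8 FPKM) and those of 7 dendritic cell markers (10.9 and 35.3 FPKM) were likewise lowest and highest there. The part of any of these cells in the Casp1 and Pycard values was not tested.

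Casp4 (ENSMUSG00000033538, chromosome 9, 5308828 to 5336783), the mouse protease also called caspase-11 that binds bacterial lipopolysaccharide directly, had ND values of 3.14, 4.04 and 4.96 FPKM and HCD values of 3.71, 5.52 and 3.08 FPKM. Its group means were 4.05 ± 0.911 and 4.10 ± 1.27 FPKM (SD, n = 3), and the log2 difference was 0.0032 (95% interval -0.50 to 0.51, limma adjusted p = 0.998). Gsdmd (ENSMUSG00000022575, chromosome 15, 75862327 to 75867408), the substrate of both caspases, measured 63.2, 73.1 and 74.6 FPKM under ND and 64.2, 77.3 and 63.6 FPKM under HCD. The groups covered nearly the same range. Its log2 difference was -0.042 (95% interval -0.29 to 0.21, limma adjusted p = 0.927), from 2321 to 3403 fragments. Over the 6 libraries Gsdmd and Pycard had the same order, from ND 1 through HCD 3, HCD 1, ND 2 and ND 3 to HCD 2.

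Among the cytokines, Il1b was lower on average in HCD, but ND 2 lay within the HCD range. Il1b (ENSMUSG00000027398, chromosome 2, 129364570 to 129371139) was found at 18.0, 10.1 and 23.3 FPKM in the ND tumours and 6.43, 12.1 and 9.76 FPKM in the HCD tumours. Group means were 17.1 ± 6.66 for ND and 9.44 ± 2.86 FPKM for HCD (SD, n = 3). The log2 difference was -0.76 (SE 0.333, 95% interval -1.57 to 0.045, unadjusted p = 0.0604, limma adjusted p = 0.794). With each library left out in turn it ran from -0.51 without ND 3 to -1.08 without ND 2, where the limma adjusted p was 0.543. An antisense gene, Il1bos, shares 25 exon bases with Il1b and reached 0.083 FPKM.

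The 2 libraries with the most Il1b, ND 1 and ND 3, were also those with the highest neutrophil sums. A single marker, S100a9, gave 61.2 of the 98.1 FPKM in ND 1 and 60.2 of the 104.3 FPKM in ND 3. Of the 8 neutrophil markers 7 were tested, all 7 had a lower mean in HCD, against 44.3% of all genes tested, and limma called 0. In 2 of them, Cxcr2 and Csf3r, chosen after their values were seen, all HCD libraries lay below all ND libraries, against 6.13% of all genes tested. The most abundant, S100a9, had ND values of 61.2, 19.1 and 60.2 FPKM and HCD values of 18.0, 20.4 and 19.9 FPKM, and S100a8 had 16.7, 5.50 and 17.7 FPKM against 7.39, 7.02 and 6.32 FPKM. Ly6g, a defining marker, was at 0 in HCD 2 and at 1.12 FPKM in HCD 3, its highest value. Within HCD, Il1b spanned 6.43 to 12.1 FPKM and the neutrophil sum 39.65 to 41.85 FPKM, but single markers moved differently. Of 2 chosen after their values were seen, Csf3r was highest of the HCD libraries in HCD 2 (8.04 FPKM), as was Il1b, and Retnlg was lowest there (2.82 FPKM). The part of neutrophils in the Il1b values was not tested.

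Il1a (ENSMUSG00000027399, chromosome 2, 129299610 to 129309972), which encodes the agonist that is active without cutting by caspase-1, measured 1.88, 1.89 and 3.22 FPKM under ND and 1.15, 2.23 and 1.77 FPKM under HCD. HCD 2 lay above ND 1 and ND 2. Its log2 difference was -0.29 (95% interval -0.80 to 0.22, limma adjusted p = 0.796), from 46 to 131 fragments. It was -0.11 without ND 3 and -0.43 without HCD 2. On the other strand Gm14023, annotated as a processed transcript, shares 222 exon bases with Il1a and reached 0.491 FPKM, and reads of the 2 cannot be separated if counting ignored strand. Il1b was 5.34 to 9.55 times as high as Il1a on the deposited scale.

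Il18 (ENSMUSG00000039217, chromosome 9, 50554827 to 50581840), which encodes an inducer of interferon gamma in T cells and NK cells, was higher in each HCD library than in any ND library. It was found at 3.25, 3.79 and 3.67 FPKM in the ND tumours and 4.61, 5.83 and 4.22 FPKM in the HCD tumours. Group means were 3.57 ± 0.286 and 4.89 ± 0.840 FPKM (SD, n = 3). The log2 difference was 0.36 (SE 0.116, 95% interval 0.077 to 0.64, unadjusted p = 0.0202), and it did not pass over all genes tested (limma adjusted p = 0.794). Since 5.98% of all genes tested had HCD libraries all above ND libraries, 1 such member in 10 is near that share. The 6 values rest on 53 to 85 fragments, if the length is 714 bases. With 1 library left out the difference ran from 0.25 without HCD 2 to 0.44 without HCD 3, and the lowest limma adjusted p was 0.546. The libraries with the least and the most Il18, ND 1 and HCD 2, were those with the lowest and highest macrophage sums. The T cell and dendritic cell sums were also lowest in ND 1 and highest in HCD 2. Of the 10 macrophage and monocyte markers 8 had a higher mean in HCD, against 55.7% of all genes tested, and limma called 0. The 2 with a lower mean were Cd14, highest in ND 1 (17.8 FPKM), and Mrc1, lowest in HCD 3 (8.02 FPKM). Lyz2, the most abundant, differed most between ND 1 (83.6 FPKM) and HCD 2 (399 FPKM), as did C1qa, the next in mean level (58.2 and 209.9 FPKM). The part of macrophages, T cells or dendritic cells in the Il18 values was not tested.

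Il1rn (ENSMUSG00000026981, chromosome 2, 24336853 to 24351494), the antagonist, had ND values of 6.96, 6.71 and 6.05 FPKM and HCD values of 5.28, 6.98 and 5.76 FPKM. HCD 2 was the highest library and the groups overlapped, with a log2 difference of -0.12 (95% interval -0.37 to 0.14, limma adjusted p = 0.821), which was -0.043 without HCD 1 and -0.215 without HCD 2. Set against Il1b within each library, the Il1b to Il1rn ratio of FPKM was 2.58, 1.51 and 3.86 for the ND tumours, while the HCD tumours gave 1.22, 1.74 and 1.69. Il1b exceeded its antagonist in all 6 libraries on the deposited scale. If all fragments of both genes lay in their coding parts, the order would turn, with means of 38.6 for Il1b and 106.2 for Il1rn. Whether they lay there is not known. Over the longest principal transcripts of M21 the means were 23.1 for Il1b and 20.6 for Il1rn. The ratio was highest in ND 3 and ND 1, and ND 2 again sat with the HCD libraries. The log2(FPKM + 1) of Il1rn minus that of Il1b was higher in HCD by 0.64, with p = 0.3 by a two-sided exact permutation test, which cannot give less than 0.1 for 3 against 3. That difference was 0.35 without ND 3 and 0.98 without ND 2.

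**Figure D2:**
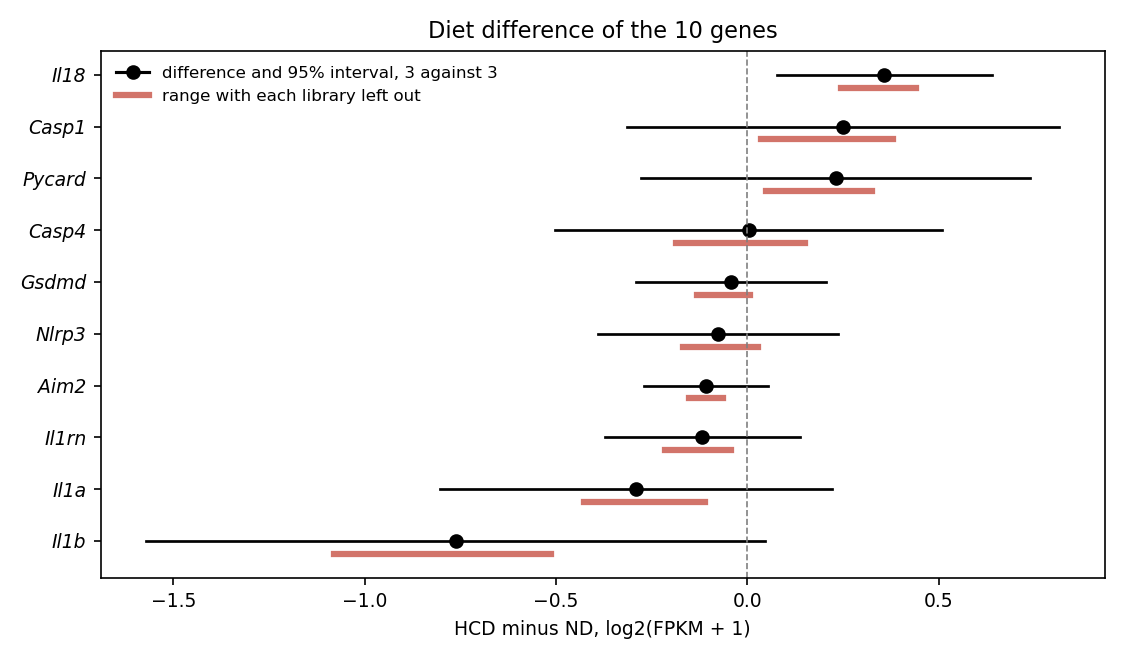
Diet difference (HCD minus ND, in log2(FPKM + 1) units) for each of the 10 genes, with its 95% interval (black) and the range of the difference when each library is left out in turn (red). Only the Il18 interval lies wholly on one side of 0, and the Il1b interval, from -1.57 to 0.045, is the widest.

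The intervals bound what these 6 libraries could show. For Aim2 the 95% interval ran from 0.829-fold to 1.04-fold on the FPKM + 1 scale, and for Gsdmd from 0.817-fold to 1.15-fold. For Nlrp3 it ran from 0.764-fold to 1.18-fold, but the added 1 FPKM compresses it at a mean of 1.69 FPKM. For Il1b it ran from 0.337-fold to 1.03-fold. Its half-width on the log2 scale was 0.81, against a median of 0.23 over all genes tested.

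**Figure D3:**
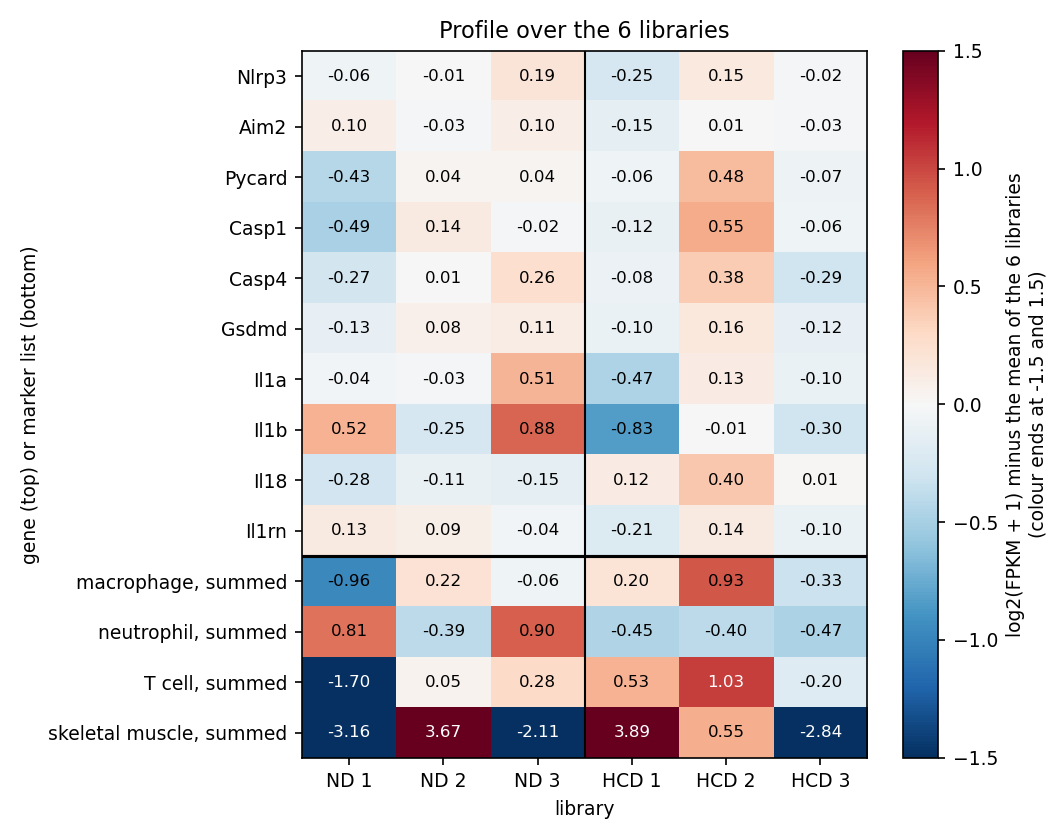
Value of each gene (top 10 rows) and of 4 summed marker lists (bottom) in each library, as log2(FPKM + 1) minus the mean of the 6 libraries, on a colour scale that ends at 1.5 to either side of 0. Casp1 and Pycard are lowest in ND 1 (-0.49 and -0.43) and highest in HCD 2 (0.55 and 0.48), as are the macrophage and T cell sums. Il1b is highest in ND 3 and ND 1 (0.88 and 0.52), as is the neutrophil sum.

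Across libraries the members fell into different orders. Of the 10, 4 had their lowest value in ND 1 (Casp1, Gsdmd, Pycard and Il18), as did 27.3% of all genes tested, and 5 in HCD 1 (Nlrp3, Aim2, Il1a, Il1b and Il1rn), as did 13.1% of all genes tested. HCD 2 held the highest value of 6 members and of 24.0% of all genes tested. Of 10904 genes averaging 1 FPKM or more, those closest in profile to Il1b over the 6 libraries were Cxcl2, a neutrophil-attracting chemokine, Mxd1, a MAX-binding repressor, Acsbg1, an acyl-CoA synthetase, and Cxcl17, a mucosal chemokine. The root mean square distance between centred log2(FPKM + 1) profiles was 0.12 for Cxcl2 and 0.19 to 0.21 for the other three. Cxcl2 measured 4.73, 2.15 and 6.79 FPKM under ND and 1.52, 3.17 and 2.98 FPKM under HCD. Those closest to Casp1 were Gde1, Gatm, Clec4n and Cd300ld, at distances of 0.031 to 0.043. Clec4n, a C-type lectin of macrophages and dendritic cells, ranged from 7.09 FPKM in ND 1 to 16.7 FPKM in HCD 2. These are nearest neighbours picked from 10904 over 6 shared libraries and serve as a description.

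Other inflammasome and pyroptosis genes did not differ by diet past the threshold either. Of 18 listed, 13 were tested, limma called 0, the HCD mean was higher in 5 and lower in 8, and the median difference was -0.036. Nlrp1a, Naip1, Nlrp6, Nlrp10 and Nlrp12, sensors or sensor-like proteins, lay below the level for testing. Ninj1, whose product ruptures the membrane of dying cells, averaged 32.0 ± 2.02 FPKM under ND and 30.3 ± 2.53 FPKM under HCD (SD, n = 3). Casp8, which links death receptors to apoptosis, was found at 31.6, 30.9 and 31.7 FPKM in the ND tumours and 28.5, 28.7 and 29.97 FPKM in the HCD tumours. These groups did not overlap, as in 6.13% of all genes tested with HCD lower, at a log2 difference of -0.11 (limma adjusted p = 0.794). Txnip, a thioredoxin-binding protein reported to engage NLRP3, was at 20.9 ± 1.62 and 18.3 ± 3.20 FPKM (SD, n = 3).

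Panx1, a membrane channel for ATP release, had the lowest unadjusted p of this list and groups that did not overlap. Of the 13 genes tested, it was the 1 with all HCD libraries higher and Casp8 the 1 with all lower, near the 5.98% and 6.13% of all genes tested. It had ND values of 0.747, 1.01 and 1.12 FPKM and HCD values of 2.05, 2.45 and 1.23 FPKM, where HCD 3 lay close to ND 3. Its log2 difference was 0.55 (SE 0.179, unadjusted p = 0.0205, limma adjusted p = 0.794).

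Of the other IL-1 family ligands, 2 of 6 were tested and limma called 0. Il33, an alarmin of the nucleus of stromal and epithelial cells, averaged 15.7 ± 0.991 FPKM under ND and 14.8 ± 2.15 FPKM under HCD (SD, n = 3). Il1f9, the older name of the IL-36 gamma gene, measured 1.94, 2.31 and 3.32 FPKM under ND and 0.894, 1.66 and 2.18 FPKM under HCD. Its groups overlapped, and its log2 difference was -0.46 (limma adjusted p = 0.794). Il1f6 and Il1f10 were listed at 0 in all 6 libraries, and Il1f5 and Il1f8 above 0 in HCD 3 alone, at 0.0052 and 0.079 FPKM. Summed over 8 keratinocyte markers, HCD 3 held 44.7 FPKM and the other libraries 26.0 to 33.3 FPKM, and limma called 0 of the 5 markers tested. The markers did not move as one: of the 2 most abundant, Dsp was highest in ND 3 (27.9 FPKM, against 25.4 FPKM in HCD 3) and Sfn in HCD 3 (4.65 FPKM). Of those chosen after their values were seen, Krt5 and Krt14 were highest in HCD 3 (5.28 and 7.48 FPKM), Krt10 and Ivl were highest in ND 3, and Lor was at 0 in all 6 libraries. The part of keratinocytes in the Il1f5 and Il1f8 values was not tested.

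Receptors and decoys were also without a call, with 8 of 9 tested, 3 higher and 5 lower in mean, and a median difference of -0.097. Sigirr, an inhibitory receptor and the most abundant of the list, was found at 70.0, 58.3 and 67.5 FPKM in the ND tumours and 54.0, 55.0 and 62.2 FPKM in the HCD tumours. Il1r1, the signalling receptor of both IL-1 agonists, was at 7.41 ± 1.72 and 5.90 ± 0.562 FPKM (SD, n = 3). On the deposited scale Sigirr was 7.51 to 9.82 times as high as Il1r1 in every library. Il1r2, a decoy that binds IL-1 without signalling, had ND values of 7.30, 4.12 and 6.93 FPKM and HCD values of 3.12, 4.24 and 4.39 FPKM. As with Il1b, ND 1 and ND 3 were high and ND 2 lay in the HCD range. The log2 difference of Il1r2 was -0.51 (unadjusted p = 0.0496, limma adjusted p = 0.794). Il18bp, the secreted inhibitor of IL-18, measured 7.03, 15.55 and 18.6 FPKM under ND and 16.7, 35.1 and 16.3 FPKM under HCD, with ND 1 lowest and HCD 2 highest. Its log2 difference of 0.70 had an interval of -0.33 to 1.72 (limma adjusted p = 0.794). Il1rap, the shared co-receptor, lay below the level for testing at 0.197 to 0.483 FPKM.

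None of the signalling genes downstream of the receptor passed the threshold. All 10 were tested, limma called 0, the HCD mean was higher in 6 and lower in 4, and the differences ran from -0.053 to 0.13. Tollip, an inhibitor of IL-1 receptor signalling, averaged 30.8 ± 4.21 FPKM under ND and 30.4 ± 1.61 FPKM under HCD (SD, n = 3). Map3k7, the kinase TAK1, was at 25.6 ± 0.467 and 24.7 ± 2.05 FPKM (SD, n = 3), and its partner Tab2 at 16.3 ± 0.765 and 17.1 ± 1.505 FPKM (SD, n = 3). Myd88, the adaptor of the receptor, had the lowest unadjusted p of the list, 0.208, with 4.18 ± 0.229 and 4.69 ± 0.615 FPKM (SD, n = 3).

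**Figure D4:**
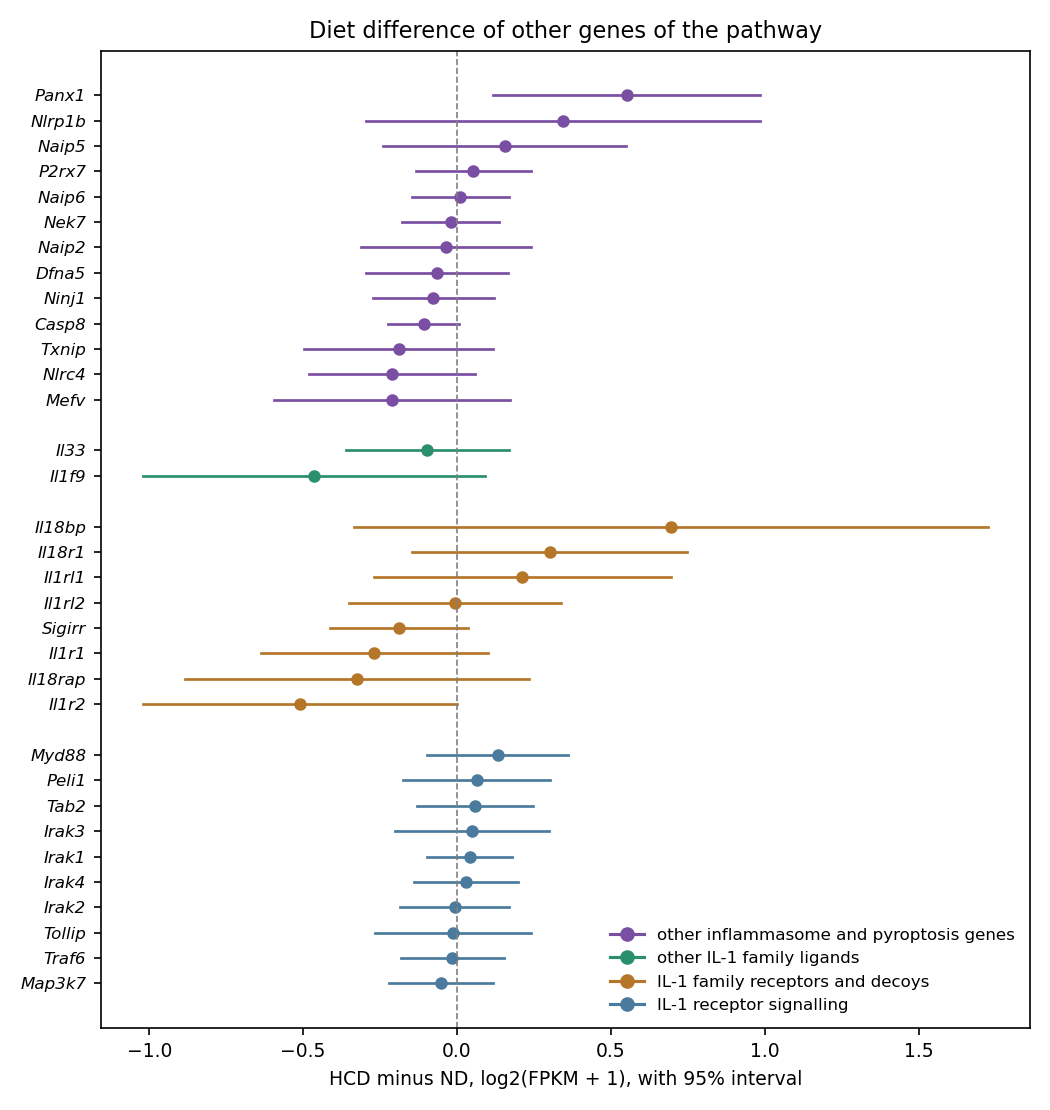
Diet difference (HCD minus ND, in log2(FPKM + 1) units) with 95% intervals for the 33 tested genes of the 4 other pathway lists, coloured by list. The 10 signalling genes lie within -0.053 to 0.13, and the widest interval is that of Il18bp, -0.33 to 1.72.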

How the data were processed

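Per the labels, RNA was column-purified from 6 tumours and sequenced as paired-end TruSeq libraries. The authors deposited FPKM values, and per the file headers the table covers 34745 mouse Ensembl gene IDs. CASAVA 1.8, HTSeq, TopHat2 2.0.9, edgeR and mm10 appear, without roles, in the submitters' processing notes. Annotation release, gene lengths and strand setting: not given in the sources used here. All 6 value columns matched a labelled sample.

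These are not counts, so log2(FPKM + 1) was fitted with limma 3.58.1 in R 4.3.3, with diet as the only term, a mean-variance trend and two-sided p-values, adjusted by Benjamini-Hochberg over all genes averaging 0.5 FPKM or more. The fit was tested on simulated data with independent normal noise and with changes placed only in genes of higher level. That test does not cover genes as low as Nlrp3, Il1a and Pycard. Differences are HCD minus ND on that scale, which understates changes of low genes. Library sizes were taken as the smallest that turned low values into whole fragments at GENCODE M21 exon lengths. Each member's gene length was the smallest that made its 6 values whole within 0.02 of a fragment; intervals on counts are not given.

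The members and lists were chosen with earlier results of these data known. Besides the 10 members, the rule names the called genes of each pathway list. Where none was called, it names the 3 most abundant and the one with the lowest p. It also names the 2 most abundant of each marker list, but T cell, dendritic cell and skeletal muscle lists are given here only as sums. Last come the 4 genes nearest in profile to the 2 most variable members, among genes averaging 1 FPKM or more. Other markers named lie outside this rule and were chosen after their values were seen. GENCODE M21 (GRCm38, the same assembly as mm10) gave 1-based positions and held 34267 of the 34745 IDs. Alternatives were a pseudocount of 0.1, other filters and scalings, the replicate number as a block, each library left out and, chosen after seeing the data, limma-voom on implied fragments and the omission of ND 2 and HCD 1.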

Additional observations from a re-analysis of the deposited data

How the results depend on the processing

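Of 174 values recomputed under other settings, 164 stayed the same, 9 changed sign and 1 count moved. Same means an unchanged direction and side of the threshold or, for counts of called genes, an unchanged count. The other filters and the replicate block leave each difference as it was, and the permutation p cannot fall below 0.1, so part of this tally was fixed beforehand. No member passed an adjusted p of 0.05 in any setting run. The difference of Casp4 was -0.0048 under median-ratio and -0.023 under upper-quartile scaling, and ran from -0.19 to 0.15 with each library left out. Without ND 2 and HCD 1, the libraries with the most muscle RNA (chosen after seeing the data), the difference was 0.0045 for Nlrp3 and 0.028 for Gsdmd. With each library left out it ran from -0.17 to 0.028 for Nlrp3 and from -0.13 to 0.0064 for Gsdmd. These 3 genes had the differences nearest to 0 among the members, and the cause of the sign changes was not tested. Requiring 1 FPKM in at least 3 libraries left Pycard untested. Leaving out each library gave 0 genes called higher and 0 to 1 called lower; the 1 was S100a9, without ND 2. Limma-voom on implied fragments, also chosen after seeing the data, called 0 genes; 738 genes had an unadjusted p under 0.05, against 789 in the reported fit. The median of all genes tested moved by less than 0.1 on the log2 scale under either scaling.

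With the replicate number as a block, 0 genes were called in either direction and Il18 had an adjusted p of 0.794, as without it. Libraries that share a number had deviations from their group means correlated at -0.19, 0.142 and 0.0588, and ND 1 was closest to HCD 3 (0.532), so the numbers were not taken as pairs.

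Depth limits Pycard, Il18 and Il1a most, at 23 to 131 fragments a library. The 95% interval of the Il1b difference, -1.57 to 0.045, was the widest among the members.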

Other observations

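Ratios between members and their inhibitors differed among tumours within a diet. Il18bp was 2.17, 4.10 and 5.07 times as high as Il18 in ND 1 to ND 3 and 3.62, 6.02 and 3.86 times in HCD 1 to HCD 3, on the deposited FPKM scale. Il1b was 5.54, 2.66 and 6.36 times as high as Il18 in ND 1 to ND 3 and 1.40, 2.08 and 2.31 times in HCD 1 to HCD 3. The groups did not overlap in that ratio, but Il18 alone already separated them and Il1b had the largest difference. The ratio is therefore no separate result. It was chosen after its values were seen, was not tested, and has no share over all gene pairs to set beside it. Casp1 exceeded Casp4 by 4.30 to 6.74 times in the 6 libraries on the deposited scale. Spread over the principal transcripts of M21, the means lay closer, at 22.3 for Casp1 and 13.8 for Casp4.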
